A study of Mus musculus and Homo sapiens with 4 samples.

Results

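RNase P RNA, RNase MRP RNA, telomerase RNA and 7SK RNA are noncoding RNAs that work inside nuclear ribonucleoprotein particles. Their reads were followed through ribosome profiling, a method that sequences the short pieces of RNA left after nuclease digestion of ribosomes. The transcripts were chosen by identifier: 8 rows of the 288251 transcript rows in the mouse and human tables, and all 8 were present. The 5 human rows are RPPH1 (ENST00000516869), RMRP (ENST00000363046 and ENST00000602361), TERC (ENST00000602385) and RN7SK (ENST00000365328). The 3 mouse rows are Rn7sk (ENSMUST00000083103), Terc (ENSMUST00000082862) and Rpph1 (ENSMUST00000175096). The rule that chose the rows gave their gene names, since neither the count files nor the name tables pair transcript identifiers with symbols. Mouse Rmrp was not analysed here.

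The reads came from 4 libraries, 1 per group. E14 is a mouse embryonic stem (ES) cell line of 129/Ola background, here grown feeder-free with LIF, the cytokine that maintains the undifferentiated state. E14 cells received either cycloheximide (100 µg/ml, 60 s) or emetine (60 s), and both drugs stop elongating ribosomes. HEK is a human embryonic kidney cell line, grown here in DMEM with 10% FBS. HEK ribosomes were sampled after size exclusion chromatography (input) and after streptavidin had captured assembled ribosomes by a tag on the large subunit (bound), whereas mouse ribosomes were pelleted. The labels name neither the tagged protein nor the dose of emetine. The labelled cell types were not checked against marker genes, because the identifiers could not be named.

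RNase P cuts the leader off precursor tRNAs, and its RNA subunit, RPPH1, carries the catalytic site. RNase MRP shares most of its protein subunits with RNase P and takes part in ribosomal RNA maturation in the nucleolus; RMRP is its RNA. TERC holds the template from which telomerase copies telomeric repeats. RN7SK is the scaffold of a particle that, with HEXIM and LARP7 proteins, keeps the transcription elongation kinase P-TEFb inactive. RPPH1, RMRP and RN7SK are made by RNA polymerase III and TERC by RNA polymerase II. All of them are annotated as noncoding, so their reads in a footprint library are counted outside any coding region.

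All 8 rows list a count for the whole transcript only, with no coding region, leader or trailer, so whole-transcript counts were used. Total counts were 17446956 (input), 30208713 (bound), 342552347 (cycloheximide) and 188700177 (emetine). Ratios were divided by the depth ratio of the median coding region with at least 100 summed reads, which was 1.99 for bound over input and 0.569 for emetine over cycloheximide. A fold of 1 therefore means that an RNA kept the proportion of the median coding region. With 1 library per group there is no test of capture or of the drugs. Intervals are exact 95% counting intervals for these libraries alone, and PCR copies counted as separate reads would make them too narrow. How reads with several matches were handled is not stated, and RN7SK in particular has many near-identical copies in mammalian genomes, so its counts are uncertain.

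In HEK cells, RNase P, RNase MRP and 7SK RNA were each several-fold scarcer among captured ribosomes than in the input, while telomerase RNA was barely sampled. Of the 5 human rows 4 had at least 100 summed reads, and all 4 of these were lower after capture by 2-fold or more. They stand for 3 RNAs, since RMRP has 2 rows. That share was 2.58% over all 22331 transcripts without a coding region that were compared, and 0.861% over 26492 coding regions. At 4-fold, a threshold these 4 rows also passed, the shares were 0.855% and 0.121%.

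**Figure D1:**
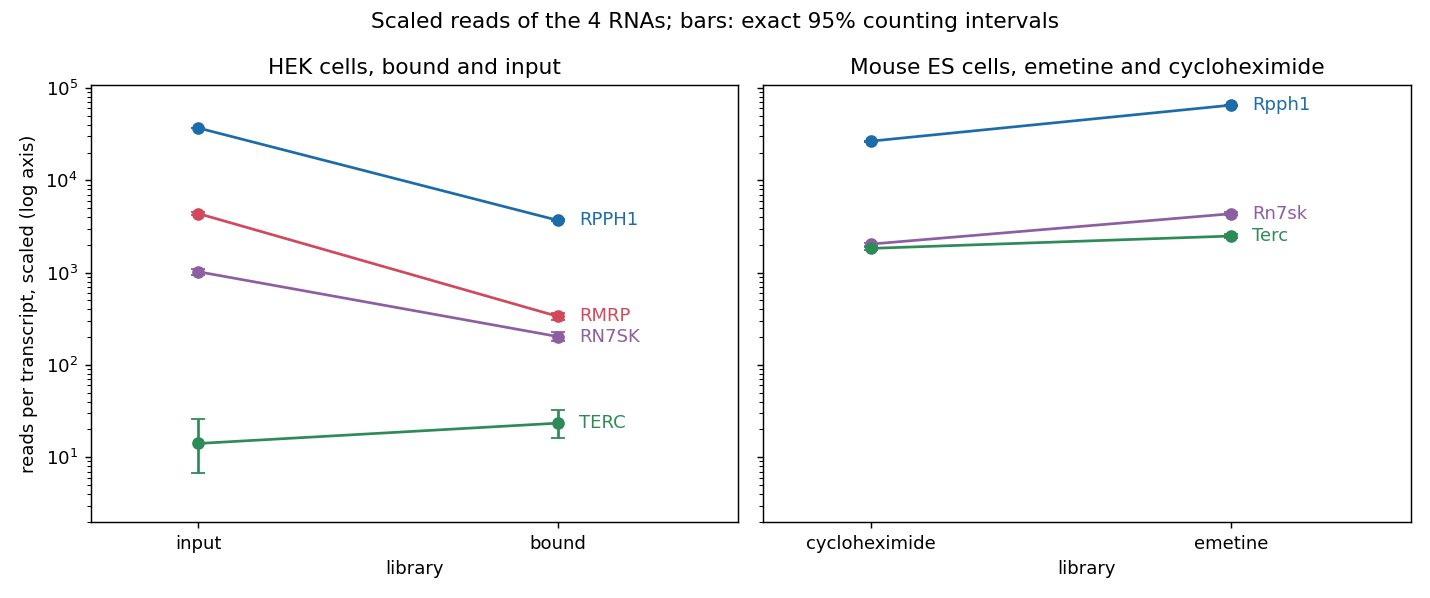
Reads per transcript on a log axis, scaled to the geometric mean depth of each pair, for the human RNAs in the input and bound libraries (left) and the mouse RNAs with cycloheximide and emetine (right); lines join the libraries of a pair, bars are exact 95% counting intervals, and RMRP is shown by ENST00000602361. RPPH1, RMRP and RN7SK descend from input to bound by 10.0-, 13.0- and 5.04-fold, TERC rests on 10 and 33 reads, and Rpph1, Rn7sk and Terc climb with emetine by 2.45-, 2.13- and 1.36-fold.

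RPPH1, the RNase P RNA, was the most abundant of the human RNAs in raw reads. Its reads numbered 26161 before capture and 5194 after it. At the proportion of the median coding region the bound library would have held 52012 reads, so 9.99% of that number was found (interval 9.69 to 10.3). The bound library was thus 10.0-fold lower for this RNA (interval 9.72 to 10.3). It stood at rank 9 among transcripts without a coding region by input reads and at rank 180 by bound reads. Its share of all counts went from 0.150% (exact binomial interval 0.148 to 0.152) to 0.0172% (0.0167 to 0.0177).

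RMRP, the RNA of RNase MRP, had the lowest bound over input ratio of the human RNAs, although RN7SK and TERC had fewer bound reads. ENST00000602361 had 3093 input reads and 473 bound reads, a 13.0-fold lower level (interval 11.8 to 14.4). ENST00000363046 had 3048 and 470 reads, 12.9-fold lower (interval 11.7 to 14.2). Between these rows the input counts differ by 45 reads and the bound counts by 3, so they were treated as 1 RNA seen through 2 identifiers and not as separate evidence. Both rows moved from ranks 146 and 150 by input reads to ranks 4456 and 4487 by bound reads. RPPH1 and RMRP were past the 8-fold threshold, as were 0.582% of transcripts without a coding region and 0.034% of coding regions.

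RN7SK, the scaffold of the kinase-inhibiting particle, was read 725 times before capture and 286 times after it. It kept 19.8% of the proportion of the median coding region (interval 17.2 to 22.8), which is 5.04-fold lower (interval 4.39 to 5.80). TERC, the telomerase template RNA, had 10 input reads and 33 bound reads. Its ratio was 1.66-fold higher in the bound library, with an interval from 0.799 to 3.78 that includes equality, so no difference was detectable at this depth. TERC did not reach the minimum of 100 reads, and 23 other transcripts have the same pair of counts. As a share of all counts this was 5.73e-05% before capture and 0.000109% after it.

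These RNAs differed from each other in the same pair of libraries, a comparison that does not depend on the scaling. All 6 pairs of human RNAs were compared, with RMRP taken from ENST00000602361. The bound over input ratio of RPPH1 was 1.30 times that of RMRP (exact interval 1.17 to 1.44). That of RN7SK was 1.99 times the ratio of RPPH1 (1.72 to 2.29) and 2.58 times that of RMRP (2.17 to 3.06). From lowest to highest the order was therefore RMRP, RPPH1, RN7SK and TERC, and each neighbouring pair differed beyond counting error. The ratio of TERC was 8.35 times that of RN7SK (3.95 to 19.3), 16.6 times that of RPPH1 (7.99 to 37.8) and 21.6 times that of RMRP (10.3 to 49.4). With intervals widened for 6 comparisons the lower bounds ran from 1.13 for RPPH1 over RMRP to 8.27 for TERC over RMRP, so all stayed above 1. The ratio of TERC was thus not distinguishable from that of the median coding region, and it was above the ratios of the other RNAs by more than counting error.

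**Figure D2:**
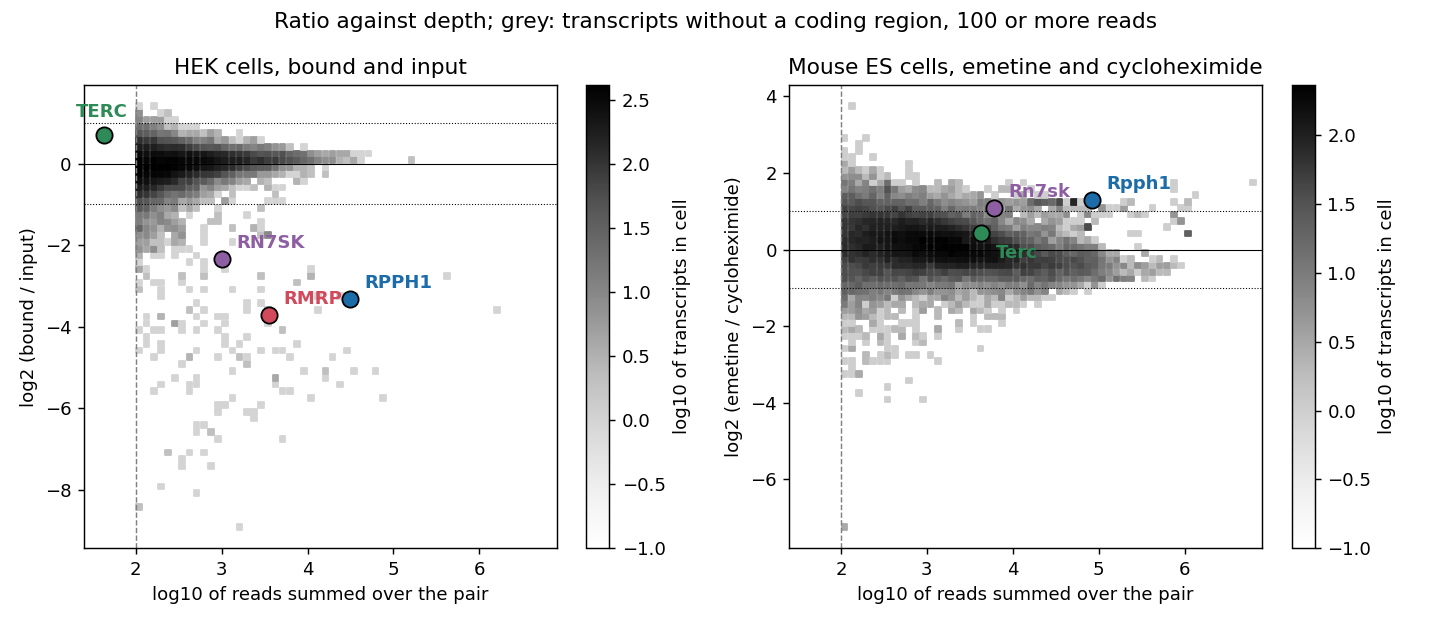
Log2 ratio (bound over input, left; emetine over cycloheximide, right) against the log10 of reads summed over the pair; grey cells count transcripts without a coding region with 100 or more reads, dotted lines mark 2-fold, the dashed line the minimum of 100 reads, and coloured points the named RNAs (RMRP by ENST00000602361). RPPH1, RMRP and RN7SK lie at -3.32, -3.70 and -2.33, below the dense band around 0, and Rpph1 and Rn7sk lie above the 2-fold line at 1.29 and 1.09.

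Each RNA was next set beside transcripts of like read number, from 0.5 to 2 times its own summed reads. Of 51 other transcripts without a coding region in the range of RPPH1, 7 (13.7%) were as low or lower, and their median log2 ratio was 0.11. Of 78 coding regions in that range 1 was as low. A level like that of RPPH1 was thus not unusual among the most abundant transcripts without a coding region, where 17.6% were lower by 2-fold or more, and it was rare among coding regions.

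For RMRP (ENST00000602361) 23 of 1437 transcripts without a coding region (1.60%) and 2 of 1987 coding regions (0.101%) were as low. For RN7SK 40 of 4840 (0.826%) and 0 of 7054 were as low, and the lowest of those 7054 coding regions had a log2 ratio of -1.18 against -2.33 for RN7SK. TERC lay within the spread of its range: 1469 of 19908 transcripts without a coding region (7.38%) and 1051 of 13720 coding regions (7.66%) were as high or higher. In that range the 5% and 95% quantiles of the log2 ratio of coding regions were -1.22 and 0.86, and TERC was at 0.71. Isoforms overlap and can share reads, so the transcripts in these ranges are not independent.

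**Figure D3:**
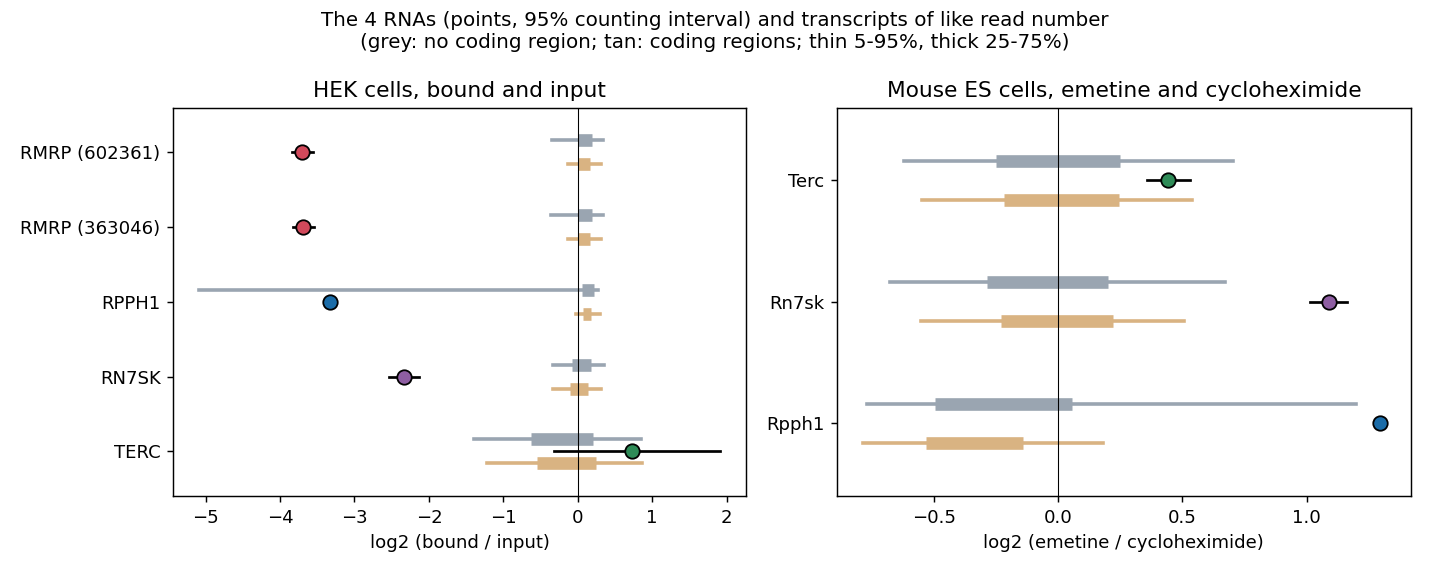
Log2 ratios of the named RNAs (points, with exact 95% counting intervals as black lines; the interval of RPPH1 and Rpph1 is hidden by the point) beside transcripts with 0.5 to 2 times the same summed reads: grey for those without a coding region, tan for coding regions, thin lines from the 5% to the 95% quantile and thick lines between quartiles. In HEK cells (left) RMRP and RN7SK lie outside both thin lines, RPPH1 lies inside the long grey line that reaches -5.09, and TERC overlaps both; in mouse ES cells (right) Rpph1 and Rn7sk lie above both thin lines and Terc lies inside both.

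In mouse ES cells, RNase P RNA and 7SK RNA held more than 2-fold larger shares relative to coding regions with emetine than with cycloheximide, and telomerase RNA was higher by less. All 3 mouse rows had at least 100 reads in each library. Of these 3, 2 were at least 2-fold higher with emetine, and 0 were at least 2-fold lower. The share at least 2-fold higher was 5.81% of 29068 transcripts without a coding region and 1.46% of 28604 coding regions. Of the same 29068 transcripts 616 were at least 2-fold lower, so 0 lower among 3 rows carries little information.

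Rpph1, the mouse RNase P RNA, was read 35253 times under cycloheximide and 49170 times under emetine, although the emetine library was the shallower one. At the proportion of the median coding region 20061 emetine reads would have been found, so the level was 2.45-fold higher (interval 2.42 to 2.49). Its rank in the class without a coding region went from 771 with cycloheximide to 153 with emetine. On the mm10 assembly (RefSeq's GRCm38.p6 table) Rpph1 lies on chromosome 14 from 50807447 to 50807771. No other RefSeq gene overlaps it, and the nearest, Parp2, which encodes a poly(ADP-ribose) polymerase, is 125 bases away.

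Rn7sk was read 2704 times under cycloheximide and 3274 times under emetine, a level 2.13-fold higher (interval 2.02 to 2.24). It lies on chromosome 9 from 78175302 to 78175633, overlaps no other RefSeq gene, and is 280 bases from the long noncoding RNA gene C920006O11Rik. Terc had 2428 and 1879 reads, 1.36-fold higher (interval 1.28 to 1.45). It lies on chromosome 3 from 96414437 to 96414833, again overlapping no other RefSeq gene, and its nearest neighbour is a tRNA gene 4296 bases away. The raw reads of Terc were fewer with emetine, and its level was higher only after scaling for depth; it stayed higher under every scaling tried.

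All 3 pairs of mouse RNAs differed beyond counting error. The emetine over cycloheximide ratio of Rpph1 was 1.15 times that of Rn7sk (exact interval 1.09 to 1.22) and 1.802 times that of Terc (1.69 to 1.92). That of Rn7sk was 1.56 times that of Terc (1.45 to 1.69). Widened for 3 comparisons, the lower bounds were 1.08, 1.67 and 1.42.

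Among transcripts of like read number, Rpph1 was above every one compared. None of 901 transcripts without a coding region (0 of 901) and none of 808 coding regions (0 of 808) was as high, and the highest of these had log2 ratios of 1.232 and 1.003 against 1.29 for Rpph1. In this range 2-fold or higher ratios were found for 11.5% of transcripts without a coding region and 0.124% of coding regions. For Rn7sk 92 of 5563 transcripts without a coding region (1.65%) and 4 of 8073 coding regions (0.0495%) were as high. Terc was no exception in its range, where 862 of 6757 (12.8%) and 866 of 8931 (9.70%) were as high. The median log2 ratio of coding regions was -0.37 in the range of Rpph1 and 0.014 in that of Terc, so the distance of Rpph1 from coding regions of its own abundance was larger than its distance from the median coding region.

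RefSeq lengths let the mouse RNAs be compared per base. Rpph1 is 325 bases long, Rn7sk 332 and Terc 397. With cycloheximide Rpph1 had 108.5 reads per base, Rn7sk 8.15 and Terc 6.12. With emetine the raw numbers were 151.3, 9.86 and 4.73 reads per base, and scaled to the depth of the cycloheximide library they were 265.9, 17.3 and 8.32. RNase P RNA was thus the most densely read of the 3 in both libraries, and the order was the same on this per-base scale with either drug. The lengths are those of the RefSeq genes and may differ slightly from those of the transcripts counted. Lengths of the human RNAs were not used here, so human levels were not compared per base.

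Side by side, the human and mouse values come from different contrasts and were not tested against each other. RNase P RNA was 10.0-fold lower after ribosome capture in HEK cells and 2.45-fold higher with emetine in mouse ES cells. For 7SK RNA the values were 5.04-fold lower and 2.13-fold higher. For telomerase RNA they were 1.66-fold higher on 43 reads and 1.36-fold higher on 4307 reads. Telomerase RNA was the nearest to coding regions of the 3 RNAs counted in both species, in the human pair by an estimate that spans equality.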

How the data were processed

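The 4 libraries were deposited by the authors as raw read counts per transcript, with columns for the whole transcript, coding region, leader and trailer per the file headers. The submitters' processing notes list, with no role, hg19, mm10, TopHat2 2.0.7, Bowtie2 2.0.6 and CASAVA 1.8. For the counting tool, the annotation release and multiply matching reads, the details are not given in the sources used. Lysates were digested with RNase I per the labels' protocols.

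Whole-transcript counts of the 8 rows, all named whatever their values, were compared within each pair. The scale set the median coding-region ratio to 1, over regions with 100 or more summed reads. Folds are ratios of scaled counts; log2 ratios, which define the 2-fold threshold, carry a prior of 0.5 scaled reads. Intervals of folds are two-sided Clopper-Pearson (95%) and those between RNAs are exact conditional odds-ratio intervals. Code was tested on simulated data. Alternatives were total-count and edgeR 4.0.16 TMM scaling, other minimums, priors and thresholds. Python 3.11.15, scipy 1.17.1 and R 4.3.3 were used. RNAs and tests were chosen with earlier results of these data known. Planned values for protein partners of the particles were not computed, because the name tables used here hold genes and no Ensembl transcript identifiers. No promoter or RNA sequence of these genes was used here.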

Additional observations from a re-analysis of the deposited data

How the results depend on the processing

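No paired analysis was possible because there is only 1 library in each group. Over 7 other scalings and priors, 46 of 56 log2 ratios stayed inside their counting interval and 0 changed sign. With total counts RPPH1 was at -3.12, RMRP at -3.49 (ENST00000363046) and -3.50 (ENST00000602361), RN7SK at -2.13 and Rpph1 at 1.34; this scaling shifts all HEK ratios by 0.20. With TMM scaling RPPH1 was at -3.23 and Rpph1 at 1.22. With the scale from coding regions of at least 500 reads RPPH1 was at -3.37. Scaled to the median transcript without a coding region, Rpph1 was at 1.21 and Rn7sk at 1.01, close to the 2-fold line. These follow from the shift each scaling applies to all ratios. The 4 human rows past 2-fold lower stayed 4 under every scaling and at 1.5-fold and 4-fold; the 2 mouse rows stayed 2 under every scaling and became 0 at 4-fold. Counts of the background changed too, but they were also taken at other minimums of summed reads per transcript. Those minimums were not applied to the counts of member rows. A minimum also sets how many transcripts are compared, so the counts below are not shares. In HEK cells 577 transcripts of the class without a coding region were lower by 2-fold or more, against 2196 with a minimum of 30 reads, 131 with 500, 1567 at 1.5-fold and 191 at 4-fold. The 41 higher became 446, 0, 505 and 0 in the same order, 129 with total counts and 73 with TMM. In mouse 1688 were higher, against 792 with 500 reads, 4985 at 1.5-fold and 28 at 4-fold; 616 were lower, against 1117 with 30 reads, 293 with 500, 2397 at 1.5-fold and 83 at 4-fold. Depth limits TERC most, with 43 reads in all.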
